A study of Mus musculus with 24 samples.

Results

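The genes described here, Sod1, Sod2, Cat, Gpx1, Gpx4, Prdx1, Gclc, Gclm, Gsr and Txn1, encode the enzymes and the carrier protein that remove superoxide and peroxides and supply the glutathione and thioredoxin used to do so. They were chosen by name in the RNA-seq table of cultured mouse oocytes, where each name matched 1 row, and they are 10 of the 16572 gene names of the table. Oocytes of class IV, that is of the largest size sorted, were obtained from C57BL/6 Barb mice aged 7 days by digestion of the ovaries and were grown on gelatine without intact follicles. The IV 5% O2 oocytes grew for 9 days with fresh medium every 24 hours, whereas the IV 20% O2 oocytes grew for 14 days with fresh medium every 48 hours. For these 4 samples the labels name C57BL/6 Barb alone, whereas the methods of the study describe a cross of a C57 Black6 with an SV129 background. The medium held fatty acid-free albumin, EGF and FSH, and no drug treatment is given for these samples. Oxygen, culture time and medium changes therefore differ together and cannot be told apart. The labels give a size of 60 to 70 μm in both conditions, but the methods of the study describe a smaller size for the IV 20% O2 oocytes, so size is not known to be equal either.

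For each condition, 2 RNA-seq libraries were made from pooled oocytes after depletion of ribosomal RNA, and the table holds 1 value per gene and condition in which these libraries are pooled. The spread between libraries is therefore unknown, and no value below has an SD or a p-value. The values are RPM (reads scaled to the depth of their column) without a correction for gene length. From the worth of 1 read, the depth was 132185257 reads at 5% O2 and 40875359 reads at 20% O2, so that the former column is the more precise. An interval given for a difference is the exact 95% Clopper-Pearson interval of the log2 read ratio between the columns. Such an interval sets these libraries, not the conditions, against each other and holds counting error alone, as no molecular identifiers were used. Differences are given as IV 5% O2 minus IV 20% O2 on the log2(RPM + 1) scale, which understates the change of low genes. Levels are compared between genes only per kb of exon (cell type markers, where RPM is summed and the gene with the most reads is named, apart), and because the transcript forms in the oocytes are not resolved, levels per kb of the longest coding transcript are given where they change an order.

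Superoxide, which leaks from the mitochondrial respiratory chain and is made by oxidases, is turned into hydrogen peroxide by the superoxide dismutases. Catalase, the glutathione peroxidases and the peroxiredoxins then remove peroxides, with glutathione or thioredoxin as the electron donor. Glutathione is made from glutamate, cysteine and glycine, is returned to its reduced form by glutathione reductase at the cost of NADPH, and is held by oocytes for use at fertilisation.

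The 10 genes differed in opposite directions between the conditions. Gpx1, Gclc, Gpx4 and, by a small margin, Sod2 had the higher value in IV 5% O2, while Sod1, Cat, Prdx1, Gclm, Txn1 and Gsr had the higher value in IV 20% O2. All 10 passed the minimum mean of 1 RPM that 14704 genes passed. Of them, 1 was at least 2-fold higher in IV 5% O2 (Gpx1), where 18.7% of all genes tested were, and 1 was at least 2-fold lower (Gsr), where 9.22% of all genes tested were. The median difference of the 10 genes was -0.17, whereas that of all genes tested was 0.26, with the middle 80% of all genes between -0.94 and 1.36. Only Gpx1, Gclc and Gpx4 lay above the median gene. For 8 of the 10 genes the counting interval lay on one side of 0, and for Sod2 and Cat it included 0. The same count was not made over all genes, so it does not set the 10 genes apart. Relative to the median gene, the differences of the 10 genes ran from -1.44 for Gsr to 0.98 for Gpx1.

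**Figure D1:**
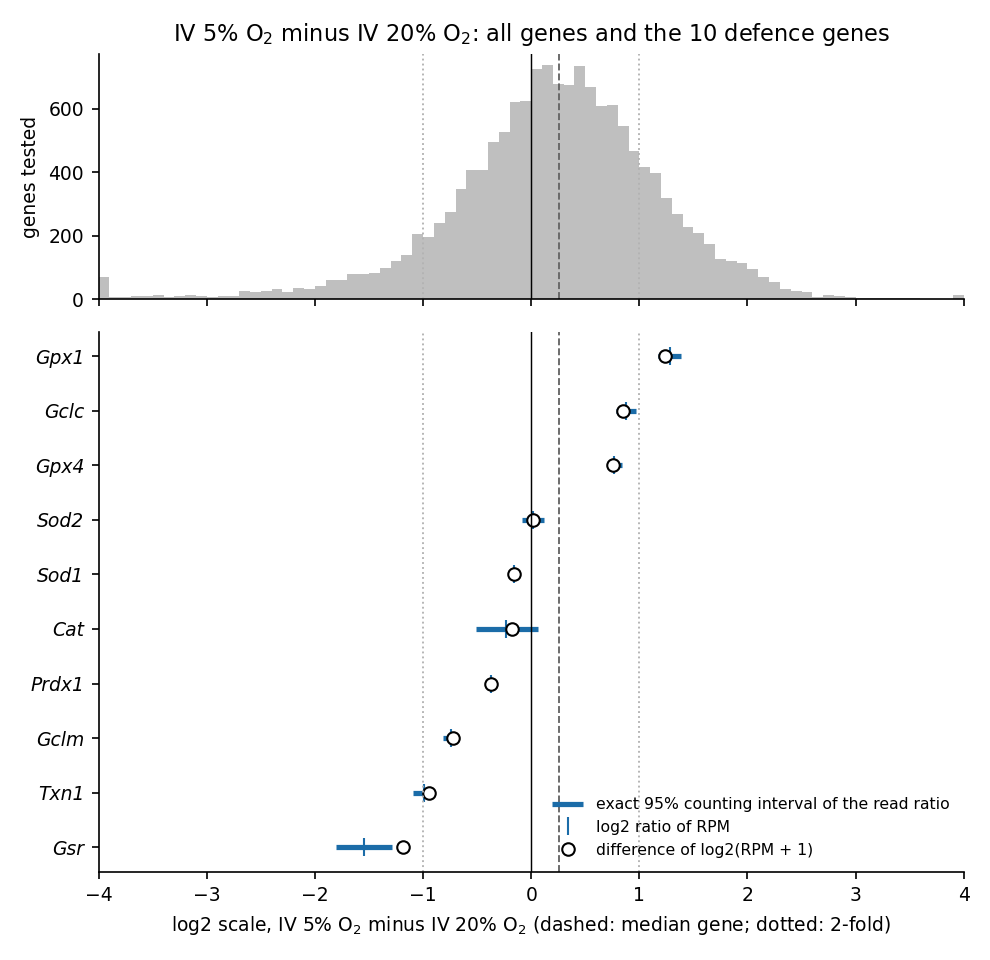
The upper panel counts the 14704 genes tested by their difference of log2(RPM + 1), IV 5% O2 minus IV 20% O2, in bins of 0.1, with larger differences gathered in the end bars. The lower panel gives the same difference for the 10 defence genes (circles) with the log2 ratio of RPM (ticks) and its exact 95% counting interval (bars). Gpx1, Gclc and Gpx4 lie above the median gene at 0.26 (dashed line), and the other 7 genes lie below it.

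The scaling of the columns set which genes passed 2-fold. With median-ratio scaling, the median of all genes moved from 0.26 to -0.04 and the counts of all genes from 2753 higher and 1356 lower to 1700 and 2031. Among the 10 genes, 0 were then at least 2-fold higher and 3 were at least 2-fold lower, namely Gsr, Txn1 and Gclm. Quantile normalization gave 1764 higher and 1866 lower genes over all, with 1 and 2 among the 10 genes. The signs of 9 of the 10 genes were the same under each setting that gave them a value. Sod2 alone changed sign. Its difference became -0.29 under median-ratio scaling, and quantile normalization gave -0.14.

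**Figure D2:**
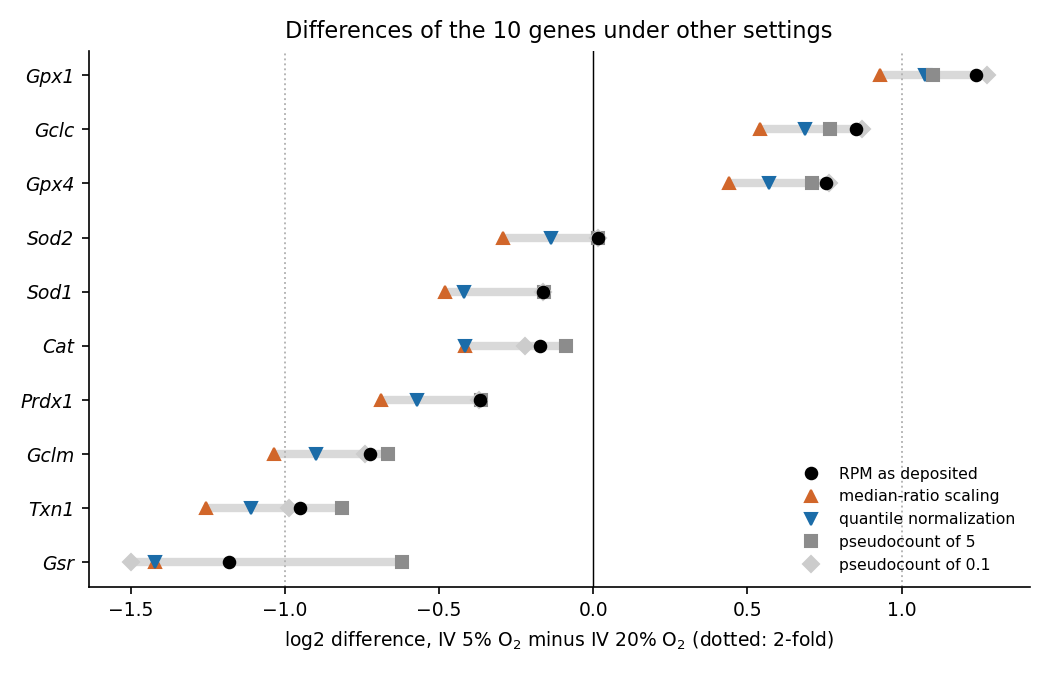
The horizontal axis gives the log2 difference, IV 5% O2 minus IV 20% O2, of each of the 10 genes for RPM as deposited (black) and for other scalings and pseudocounts (see key). The grey bars span all the settings tried that give a value. Sod2 is the gene whose marks lie on both sides of 0, and Gsr moves furthest with the pseudocount, from -1.50 to -0.62.

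Prdx1 and Sod1 were the most abundant of the 10 genes in both columns. Prdx1 had 102 RPM per kb of exon in IV 5% O2 and 132 in IV 20% O2, which is at percentile 98.4 and 98.9 of all genes of the table. Sod1 followed with 59.3 and 66.4 RPM per kb, at percentiles 96.5 and 97.2. At the other end, Gsr with 0.706 and 2.06 RPM per kb and Cat with 1.09 and 1.28 RPM per kb were the lowest, and they exchanged the last place between the columns. Of the reads on the 10 genes, 68.0% in IV 5% O2 and 75.5% in IV 20% O2 were on Prdx1 and Sod1. All reads on the 10 genes summed to 805 RPM at 5% O2 and to 883 RPM at 20% O2. Without Prdx1 and Sod1, the sums were 258 and 217 RPM, a gap of 1.19-fold that is smaller than the shift median-ratio scaling applies (factors of 1.12 and 0.895), so which sum is larger depends on the scaling.

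The order of the levels differed between the columns. In IV 5% O2 it ran Prdx1, Sod1, Gpx4, Gpx1, Txn1, Gclc, Gclm, Sod2, Cat and Gsr, and in IV 20% O2 it ran Prdx1, Sod1, Txn1, Gpx4, Gpx1, Gclm, Gclc, Sod2, Gsr and Cat. Per kb of the longest coding transcript, Sod1 came before Prdx1 in both columns, with 367 against 136 RPM per kb in IV 5% O2 and 411 against 176 in IV 20% O2. Gpx4 also came before Txn1 in IV 20% O2 on that scale, with 47.2 against 31.3 RPM per kb. The annotated exons of Sod1 add up to 3970 bases, whereas its longest coding transcript has 641, so its place depends on which form the oocytes hold. As the values are pooled, no spread between libraries can be set against the gaps in these orders.

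**Figure D3:**
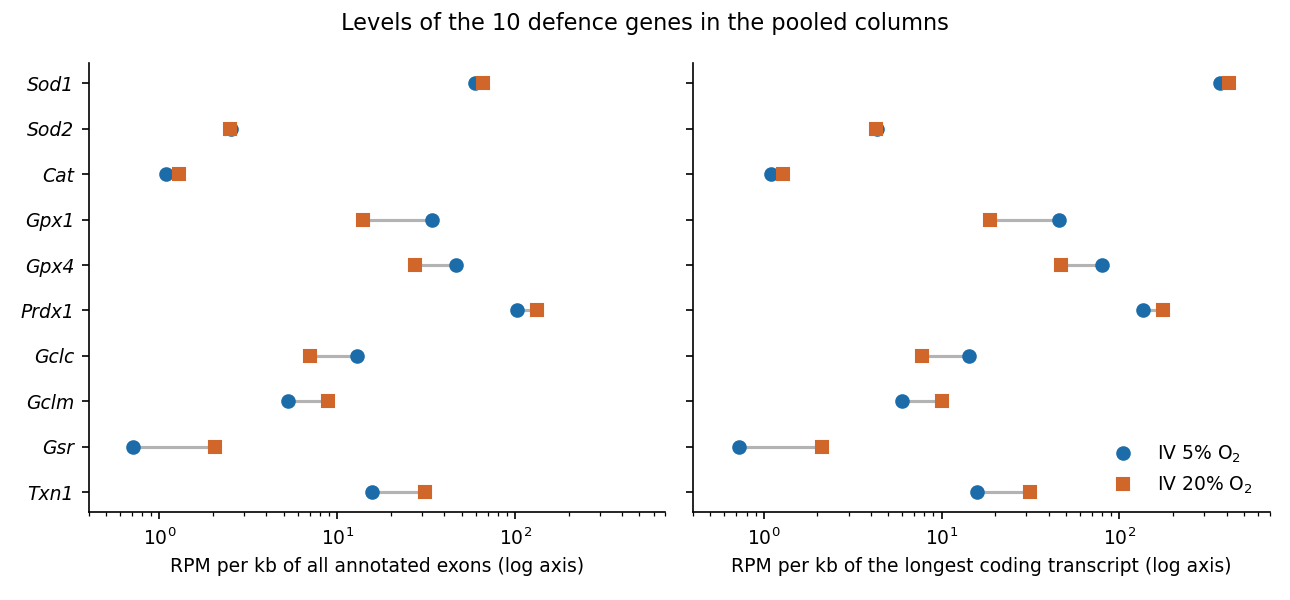
The horizontal axes (log scale) give RPM per kb of all annotated exons (left) and per kb of the longest coding transcript (right) for each of the 10 genes in the pooled IV 5% O2 (circles) and IV 20% O2 (squares) columns. Prdx1 and Sod1 stand highest in both panels and both columns, and Cat and Gsr stand lowest, between 0.706 and 2.12.

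The promoters of the genes were searched for the core of the antioxidant response element, the site through which NRF2 is known to act on many glutathione and thioredoxin genes. RefSeq promoters of GRCm38, from 250 bases before to 50 after a start, were available for 8 of the 10 genes (not Gclc and Gsr). The letters TGACNNNGC, on either strand, occurred in the windows of 3 of these genes, Gclm, Prdx1 and Sod1, and in at least 1 window of 14.0% of all 27025 genes with a RefSeq promoter (12.4% of all 32851 windows of this length). Of the other pathway genes, 8 of 63 with a promoter held them. The 69 bases around each match are shown because these are the genes of the group that hold it. They are written along the strand of the gene, with the match in capitals, which in each case lies on the opposite strand and so reads GCNNNGTCA.
Gclm, chr3:122245393-122245461: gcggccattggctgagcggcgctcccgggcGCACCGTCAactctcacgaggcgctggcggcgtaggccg
Prdx1, chr4:116685436-116685504: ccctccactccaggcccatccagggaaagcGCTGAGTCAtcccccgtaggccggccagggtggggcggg
Sod1, chr16:90220676-90220744: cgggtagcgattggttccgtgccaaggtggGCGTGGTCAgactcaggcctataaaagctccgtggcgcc
The matches begin 134, 133 and 56 bases before the RefSeq start of Gclm, Prdx1 and Sod1. All of these genes had their higher value in IV 20% O2, as did Cat and Txn1, in whose windows the letters were not found. A match of these letters is no evidence of a bound site. The windows of Sod2, Gpx1 and Gpx4 did not hold them either.

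Sod1 encodes the copper and zinc superoxide dismutase of the cytosol (chromosome 16, 90220754 to 90226329 of GRCm38, plus strand). Its value was 235 RPM at 5% O2 (31104 reads) and 263 RPM at 20% O2 (10770 reads). The difference of -0.16 was small (interval -0.19 to -0.13), but it lay below that of the median gene by 0.42 (-0.42 relative to it). Sod2 encodes the manganese superoxide dismutase of the mitochondrion (chromosome 17, 13006846 to 13040063, plus strand) and had 25.3 RPM at 5% O2 and 25.0 RPM at 20% O2. The 2 values of Sod2 were equal within counting error, with a difference of 0.02 (interval -0.09 to 0.12). Its values depend on how reads with several matches were counted, since 49.5% of its exonic windows of 50 bases and 35.8% of those of 100 bases occur at least 2 times in the genome. Per kb of exon, Sod1 was 23.5 times as high as Sod2 in IV 5% O2 and 26.6 times as high in IV 20% O2, and these folds are 85.1 and 96.4 per kb of the longest coding transcript. Ccs, which encodes the chaperone that loads copper into Sod1, had 6.33 RPM at 5% O2 and 4.43 RPM at 20% O2, a difference of 0.43. Sod1 and its chaperone thus differed in opposite directions as deposited.

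Cat encodes catalase, which breaks down hydrogen peroxide in peroxisomes without a donor (chromosome 2, 103453849 to 103485160, minus strand). It had few reads, with 2.86 RPM at 5% O2 (378 reads) and 3.35 RPM at 20% O2 (137 reads, the lowest count of the 10 genes in that column). The difference of -0.17 was not distinguishable from 0 at this depth, since the interval ran from -0.51 to 0.06. No exonic window of Cat is repeated in the genome.

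The glutathione peroxidases reduce peroxides with glutathione and most of them carry selenium at the active site. Gpx1, the cytosolic form (chromosome 9, 108338903 to 108340343, plus strand), had 49.0 RPM at 5% O2 (6476 reads) and 20.2 RPM at 20% O2 (824 reads). Its difference of 1.24 (interval 1.18 to 1.39), or 2.36-fold, was the highest of the 10 genes and was at percentile 87.8 of all genes tested. In size, Gsr differed more on the scale without a pseudocount, with a log2 read ratio of -1.55 against 1.28 for Gpx1. Under median-ratio scaling the difference of Gpx1 was 0.93 and no longer reached 2-fold. No window of Gpx1 is repeated, and no other annotated exon overlaps it. The named genes with the most similar pair of values were Rad52 with 49.3 and 20.1 RPM, Rph3a with 49.3 and 20.3 RPM and Gcfc2 with 49.1 and 20.4 RPM, at distances of at most 0.0152 in the plane of the log2(RPM + 1) values of the 2 columns.

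Gpx4, which reduces peroxides of membrane lipids and guards against ferroptosis, lies on chromosome 10 from 80047166 to 80056439 on the plus strand. It had 79.9 RPM at 5% O2 and 46.9 RPM at 20% O2. The difference was 0.75 (interval 0.70 to 0.84), or 1.69-fold, and 0.50 above that of the median gene. This value is less certain, because 33.1% of the 50-base and 25.8% of the 100-base windows of Gpx4 are repeated in the genome. Within the columns, Gpx4 was 1.36 times as high as Gpx1 per kb of exon in IV 5% O2 and 1.95 times in IV 20% O2. A ratio of this kind does not change when a column is multiplied by a constant, and its change of 0.70-fold had an exact conditional 95% interval of 0.64 to 0.76. Both genes were well above Cat per kb of exon, Gpx1 by 31.1-fold in IV 5% O2 and by 10.9-fold in IV 20% O2.

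Of the other glutathione peroxidases, Gpx3 and Gpx6 were tested and neither differed by 2-fold. Gpx3, the secreted form, was the higher of this list per kb of exon and had 20.8 RPM at 5% O2 and 26.8 RPM at 20% O2, a difference of -0.35 (interval -0.47 to -0.27). Gpx6 had 15.0 and 14.0 RPM, a difference of 0.09 that was not distinguishable from 0 at this depth (interval -0.03 to 0.24). Selenium reaches those glutathione peroxidases that carry it through the synthesis of selenocysteine. All 8 genes listed for that synthesis were tested, of which 1 was at least 2-fold higher and 0 lower, and their median difference was 0.49. That median was 0.19 when the columns were scaled by their median ratio and 0.33 after quantile normalization. Secisbp2, which encodes the protein that binds the selenocysteine insertion element, was higher with 50.9 RPM at 5% O2 and 23.0 RPM at 20% O2, a difference of 1.11 (interval 1.05 to 1.25). Sephs2, which makes the selenium donor and was the highest of the list, had 127 and 77.0 RPM, a difference of 0.72. The exons of Sephs2 share 36.4% of their bases with an annotated transcript on the opposite strand. The study describes the libraries as strand-specific, but whether the counting used strand is not given in the sources used here.

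Prdx1 encodes the cytosolic peroxiredoxin that is kept reduced by thioredoxin (chromosome 4, 116685544 to 116700822, plus strand). It had the most reads of the 10 genes, with 312 RPM at 5% O2 (41219 reads) and 403 RPM at 20% O2 (16470 reads). The difference was -0.37 (interval -0.40 to -0.34), or -0.63 when set against the median gene. Repeated windows make up 24.5% of the 50-base and 10.5% of the 100-base windows of Prdx1. Of the 5 other peroxiredoxins tested, 0 were at least 2-fold higher and 1 was at least 2-fold lower, and their median was 0.29 (-0.03 under median-ratio scaling). Prdx2, the highest of them per kb of exon, had 364 RPM at 5% O2 and 299 RPM at 20% O2, a difference of 0.29. As deposited, Prdx2 thus went against Prdx1, but its difference equals the shift of the median gene to within 0.03. That difference is also the median of the 5, which was -0.03 under median-ratio scaling, so the direction of Prdx2 depends on the scaling. The exons of Prdx2 share 5.67% of their bases with Junb and 5.80% with Rnaseh2a on the opposite strand. Prdx4, the peroxiredoxin of the endoplasmic reticulum, had 0.514 RPM at 5% O2 and 4.40 RPM at 20% O2, a difference of -1.84 on the log2(RPM + 1) scale and a log2 read ratio of -3.10 (interval -3.52 to -2.69). No exonic window of Prdx4 is repeated.

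The subunits of glutamate-cysteine ligase, which carries out the rate-limiting step of glutathione synthesis, went in opposite directions. Gclc, the catalytic subunit (chromosome 9, 77754535 to 77794485, plus strand), had 48.8 RPM at 5% O2 (6449 reads) and 26.6 RPM at 20% O2 (1087 reads). Its difference was 0.85 (interval 0.78 to 0.97), or 1.80-fold, and 0.59 above the median gene. Gclm, the modifier subunit (chromosome 3, 122245557 to 122270732, plus strand), had 33.4 RPM at 5% O2 (4421 reads) and 55.9 RPM at 20% O2 (2286 reads). The difference of Gclm was -0.72 (interval -0.81 to -0.67), which is 1.65-fold lower in IV 5% O2, and it was -0.98 when set against the median gene. Per kb of exon, the catalytic subunit was 2.44 times as high as the modifier subunit in IV 5% O2 and 0.79 times as high in IV 20% O2. The ratio of the subunits thus differed 3.07-fold between the columns (exact conditional 95% interval 2.82 to 3.33), which multiplying a column by a constant does not change. Per kb of the longest coding transcript, the ratios were 2.38 and 0.78. No window of Gclc is repeated. At Gclm, 5.23% of the 50-base windows are repeated, and its exons share 4.71% of their bases with Gm17494 on the opposite strand and 3.88% with the pseudogene Gm6061 on the same strand.

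Among the other genes of glutathione synthesis, supply and breakdown, 12 of 14 were tested, 3 were at least 2-fold higher in IV 5% O2 and 3 at least 2-fold lower, and the median was -0.09 (-0.37 under median-ratio scaling). Gss, which encodes glutathione synthetase and completes what the ligase begins, had 9.31 RPM at 5% O2 and 2.13 RPM at 20% O2, a difference of 1.72 (log2 read ratio 2.13, interval 1.81 to 2.46). Its exons share 6.68% of their bases with Acss2, 6.51% with Gssos2 and 5.44% with Gssos1, all on the opposite strand. Like Gclc and unlike Gclm, it was higher in IV 5% O2. Ggt1 and Ggt5, which belong to the family that breaks down glutathione outside the cell, were higher too. Ggt1 had 12.5 and 2.37 RPM, a difference of 2.00, and Ggt5 had 3.11 and 0.122 RPM, a difference of 1.87 that rests on 5 reads in IV 20% O2.

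The genes of the list that were at least 2-fold lower in IV 5% O2 were Cth, Slc1a1 and Chac1. Cth, which makes cysteine from cystathionine, had 22.1 RPM at 5% O2 and 65.7 RPM at 20% O2, a difference of -1.53 (interval -1.65 to -1.50). Slc1a1, a carrier of glutamate and cysteine, had 1.23 and 3.99 RPM, a difference of -1.16, and 31.9% of its exonic bases overlap 4430402I18Rik on the opposite strand. Chac1, which breaks down glutathione in the cytosol and is known as a target of the ER stress response, had 20.1 and 70.6 RPM, a difference of -1.76 (interval -1.89 to -1.74). Slc3a2, the heavy chain of the cystine carrier and the highest of the list per kb of exon, had 252 RPM at 5% O2 and 168 RPM at 20% O2, a difference of 0.58.

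Gsr encodes glutathione reductase, which returns oxidised glutathione to its reduced form (chromosome 8, 33652523 to 33698163, plus strand). It had 1.94 RPM at 5% O2 (257 reads) and 5.68 RPM at 20% O2 (232 reads). The difference of -1.18 was the lowest of the 10 genes and at percentile 7.05 of all genes tested. Its level is near the pseudocount, so the scale matters here. The log2 read ratio without a pseudocount was -1.55 (interval -1.81 to -1.28), whereas a pseudocount of 5 gave -0.62 and values per kb of exon gave -0.84. No window of Gsr is repeated and no other exon overlaps it. Genes near Gsr in their values were Rab36 with 1.93 and 5.72 RPM and Dus4l with 2.00 and 5.82 RPM, at distances of at most 0.0406. Gpx1 and Gpx4, which use glutathione, thus went apart from the reductase that restores it. Gpx1 was 48.2 times as high as Gsr per kb of exon in IV 5% O2 and 6.79 times as high in IV 20% O2, a 7.09-fold change of the ratio (exact conditional 95% interval 5.83 to 8.63). For Gpx4 against Gsr, the ratios were 65.6 and 13.2, a 4.97-fold change (interval 4.11 to 6.00).

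NADPH, the donor of both glutathione and thioredoxin reductases, is supplied by the enzymes of the next list. Of 7 genes tested, 7 had a higher value in IV 5% O2, as had 62.6% of all genes tested, 1 differed by at least 2-fold, and the median was 0.27, or 0.49 without the filter on low values. Idh1, the cytosolic NADP-dependent isocitrate dehydrogenase, had 62.9 RPM at 5% O2 and 16.7 RPM at 20% O2, a difference of 1.85 (interval 1.80 to 2.02). G6pdx, which opens the pentose phosphate pathway and was the highest of the list per kb of exon at 20% O2 (Me1 was at 5% O2), had 325 and 277 RPM, a difference of 0.23. At G6pdx, 13.6% of the exonic bases overlap Ikbkg on the opposite strand, and at Me1, 30.3% of the 50-base windows are repeated. With median-ratio scaling, the median of this list was -0.04.

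Txn1 encodes cytosolic thioredoxin, the reducing partner of the peroxiredoxins (chromosome 4, 57943373 to 57956411, minus strand). It had 16.6 RPM at 5% O2 (2190 reads) and 32.9 RPM at 20% O2 (1346 reads). The difference was -0.95 (interval -1.09 to -0.89), or 1.93-fold lower in IV 5% O2, just inside the 2-fold limit, which median-ratio scaling with -1.26 and quantile normalization with -1.11 took it past. Prdx1 was 6.50 times as high as Txn1 per kb of exon in IV 5% O2 and 4.23 times as high in IV 20% O2, a change of 1.54-fold (exact conditional 95% interval 1.43 to 1.65). Only 2.41% of the 50-base windows of Txn1 are repeated, and no window of 100 bases is.

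Of 13 other genes of the thioredoxin, glutaredoxin and methionine sulfoxide repair list, 1 was at least 2-fold higher and 0 lower, and the median of -0.15 turned positive, to 0.18, with values per kb of exon. Txnip, which encodes the protein that binds and inhibits thioredoxin, was both the highest of the list per kb of exon and the only one past 2-fold, with 1424 RPM at 5% O2 and 447 RPM at 20% O2. The difference of Txnip was 1.67 (interval 1.65 to 1.69), against -0.95 for Txn1. Per kb of the longest coding transcript, Glrx was above Txnip at 20% O2. At Txnip, 19.4% of the exonic bases overlap Gm15441, an antisense gene.

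**Figure D4:**
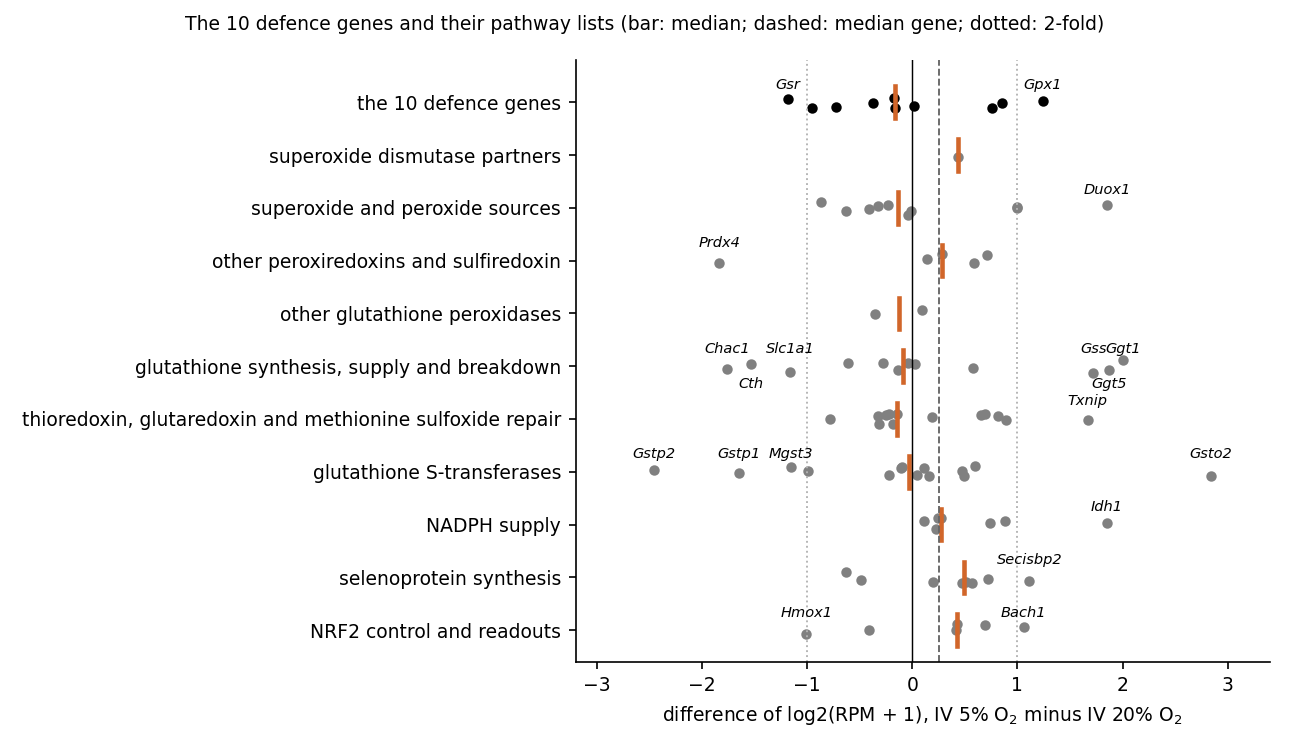
Each point is a gene tested, placed by its difference of log2(RPM + 1), IV 5% O2 minus IV 20% O2 (vertical jitter carries no meaning), for the 10 defence genes (black) and for each pathway list (grey), with the median of the list as a bar. Genes past 2-fold (dotted lines) are named. In the 10 defence genes 1 lies past 2-fold on each side, and in the pathway lists 9 are higher and 8 are lower.

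Over all 10 pathway lists, 80 of 104 genes are in the table and 78 were tested. Of these, 9 (11.5%) were at least 2-fold higher in IV 5% O2 and 8 (10.3%) at least 2-fold lower, beside 18.7% and 9.22% of all genes. The balance turned with the scaling, to 7 higher and 11 lower under median-ratio scaling and to 7 and 10 under quantile normalization. Of 10 genes tested that make superoxide or peroxide, 7 had the lower value in IV 5% O2, where 62.6% of all genes tested had the higher one. Of the 10, 1 was at least 2-fold higher and 0 at least 2-fold lower, and the median was -0.13, or -0.43 under median-ratio scaling. Duox1, a dual oxidase, had 3.23 RPM at 5% O2 and 0.171 RPM at 20% O2, a difference of 1.85 that rests on 7 reads in IV 20% O2 and goes against most of the list. Cybb and Nox4, named after their values had been seen, were also higher and just short of 2-fold, with differences of 0.992 and 0.999. Their log2 read ratios were 2.13 (interval 1.42 to 2.93, 17 reads in IV 20% O2) and 1.42 (interval 1.03 to 1.83). Nox1 and Duox2 of the same list were lower, with differences of -0.41 and -0.87. The highest of that list per kb of exon, Ero1lb, an oxidase of the endoplasmic reticulum, had 130 and 134 RPM, a difference of -0.04 that is less certain, because 35.5% of its 50-base and 17.0% of its 100-base windows are repeated. The glutathione S-transferases, which join glutathione to foreign and oxidised molecules, had 1 gene at least 2-fold higher and 3 at least 2-fold lower of 14 tested, with a median of -0.03, or -0.28 under median-ratio scaling. Gsto2 had 37.0 and 4.31 RPM, a difference of 2.84, and Mgst3 had 53.4 and 119.95 RPM, a difference of -1.15. Per kb of exon, Mgst3 was the highest of the list in both columns (48.6 and 109), but per kb of the longest coding transcript Gstm5 was higher at 5% O2, with 56.8. Gstp1 and Gstp2 had differences of -1.65 and -2.46, but they are near-identical copies, with 45.9% and 70.8% of their 50-base windows repeated, and their reads cannot be assigned with certainty.

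Several of the 10 genes are known targets of NRF2, the transcription factor encoded by Nfe2l2. Of 6 genes of its control and readout list, 4 had the higher value in IV 5% O2 and 2 the lower one, 1 was at least 2-fold higher and 1 at least 2-fold lower, and the median was 0.42, or 0.14 under median-ratio scaling and 0.24 under quantile normalization. Bach1, a repressor at the same sites, had 104 RPM at 5% O2 and 49.4 RPM at 20% O2, a difference of 1.06 (interval 1.01 to 1.14). Hmox1, the heme oxygenase gene that Bach1 is known to repress, had 16.2 and 33.6 RPM, a difference of -1.01 (interval -1.15 to -0.95). Nfe2l1, the highest of the list per kb of exon, had 171 and 106 RPM, a difference of 0.69. The other members, which did not reach 2-fold and are named after their values had been seen so that the list is complete, went both ways. Nqo1, a quinone reductase gene that like Hmox1 is read as a target of NRF2, had 5.77 and 4.06 RPM, a difference of 0.42 (interval 0.26 to 0.76). Keap1, whose protein holds NRF2 back, had 23.0 and 16.8 RPM, a difference of 0.43 (10.9% of its exonic bases overlap Gm16754 on the opposite strand), and Nfe2l2 itself had 21.8 and 29.4 RPM, a difference of -0.41. The known targets in this list, Hmox1 and Nqo1, thus differed in opposite directions as deposited. Relative to the median gene, Hmox1 was at -1.27 and Nqo1 at 0.16 only.

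The study describes theca-like cells and a small number of granulosa cells in the early culture. Among the markers of other cells, those of theca and stroma differed most between the columns. The oocyte identity of both columns was clear, with summed oocyte markers of 9697 RPM at 5% O2 and 13789 RPM at 20% O2, the most on Gdf9 with 2346 RPM and on Zp2 with 3807 RPM, and 3 of the 10 (Zp2, Zp3 and Kit) were at least 2-fold lower in IV 5% O2. Theca and stroma markers summed to 45.3 RPM at 5% O2 and to 5.48 RPM at 20% O2, with the most reads on Cyp11a1 with 16.4 RPM and on Fn1 with 2.30 RPM. Of 10 such markers in the table, 7 reached 1 RPM at 5% O2 and 2 did at 20% O2, while Vim, Dcn and Col1a2 were without reads at 20% O2, which at this depth still permits 0.0734 RPM (3 reads). Granulosa and cumulus cell markers summed to 41.3 and 29.8 RPM, with the most reads on Nr5a2 with 18.7 and 17.6 RPM, with Fshr at 0 reads in IV 5% O2 and Inha at 0 reads in IV 20% O2. Macrophage markers summed to 24.9 and 22.6 RPM, with the most reads on Csf1r with 9.28 and 15.0 RPM, but they went both ways. C1qb, singled out after its values had been seen, had 7.07 and 1.44 RPM, and Lyz2 had no reads at 20% O2. Endothelial markers summed to 65.0 and 37.9 RPM, with the most reads on Pecam1 with 45.9 and 32.7 RPM. The erythroid markers Alas2 and Slc4a1 summed to 2.47 and 1.57 RPM, with the most reads on Alas2 with 1.32 and 1.57 RPM. The part of these cells in the differences of the 10 genes was not tested, and in pooled RNA fewer cells of a type and less RNA per cell cannot be told apart.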

How the data were processed

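The RNA-seq data of the IV 5% O2 and IV 20% O2 oocytes were analysed, and the RRBS and PBAT libraries were not used here. Per the labels, reads were trimmed with Trim Galore (0.3.5 and 0.2.8 are named) and aligned to GRCm38 with TopHat2 2.0.9. The authors merged reads across exons in SeqMonk and deposited log2 values, 1 per gene and condition. The deposited values are described as corrected for length, but on the linear scale 99.98% of the entries with reads were, in each column, whole multiples (to within 0.1 read) of 1 step, so they were read as RPM. Genes without reads, listed at 0.9 of 1 read, were set to 0. How libraries were pooled into a column is not given in the sources used here. A further column that belongs to no sample of the series was not used (1 column).

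Gene models came from the GENCODE annotation of GRCm38, to which 16572 of 16591 rows were matched. Exonic windows of 50 or 100 bases, taken every 10 bases, were called repeated when they occurred at least 2 times in 22 chromosome sequences. The planned tests need values per library, so no test was run. Genes at least 2-fold apart on log2(RPM + 1) were counted among genes whose 2 values averaged 1 RPM or more. The genes and lists were chosen with earlier results of these data known. Named were all 10 genes, the pathway genes past 2-fold, the highest gene per kb of each list, the 3 genes nearest to Gpx1 and to Gsr (1 of those near Gsr is not reported here), and the leading markers. Other pseudocounts, filters, scalings and lengths were tried, and division by the longest coding transcript was added after seeing the data. The software was matplotlib 3.10.9, numba 0.67.0, scipy 1.17.1, pandas 2.3.3 and numpy 2.4.6 under Python 3.11.15.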

Additional observations from a re-analysis of the deposited data

How the results depend on the processing

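No paired analysis was possible because both libraries of a condition share 1 column. Without values per library, edgeR, limma, DESeq2, the replicate block and leave-one-out were not run. Each value rests on 2 pooled columns, and depth limits the 20% O2 column most.

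The count of the 10 genes at least 2-fold lower in IV 5% O2, 1 in the report, was 0 after division by exonic length or by the longest coding transcript, 0 with a pseudocount of 5, 0 with the filter at 5 RPM (Gsr is then not tested), 2 with quantile normalization and 3 with median-ratio scaling. The count at least 2-fold higher, 1 in the report, was 0 with median-ratio scaling. The median difference of the 10 genes, -0.17, moved to -0.45 (median-ratio scaling) and -0.42 (quantile normalization). The number above the median gene was 3 under each alternative except the limit on repeated windows, where Gpx4 is not tested and 2 were left.

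Among other pathway genes, 5 in place of 9 were at least 2-fold higher after division by exonic length, and 5 in place of 8 at least 2-fold lower with a pseudocount of 5. Over all genes, the 2753 higher ones became 1700 (median-ratio scaling), 1764 (quantile normalization), 1202 (pseudocount of 5), 1691 (filter at 5 RPM), 1609 (exonic length) or 1486 (longest coding transcript). The 1356 lower ones became 706 (pseudocount of 5), 878 (under 10% repeated windows), 899 (exonic length) or 815 (longest coding transcript).

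Signs reversed for Sod2, to -0.29 (median-ratio scaling) and -0.14 (quantile normalization). List medians reversed for other peroxiredoxins (-0.0337) and NADPH supply (-0.0394) with median-ratio scaling, for glutathione S-transferases under 10% repeated windows (0.00704), and for the thioredoxin list with the filter at 5 RPM (0.19), after division by exonic length (0.18) and by the longest coding transcript (0.19). Median-ratio scaling multiplies each column by a constant, which by construction gives its reversals, and the cause of the others was not tested. Of the other single-gene and list values, 40 moved by more than the counting interval (for lists, the median interval of the 10 genes) without a change of sign, and 145 did not.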
